A study of Homo sapiens with 16 samples.

Results

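The regions described here carried an ATAC-seq peak in both libraries of senescent fibroblasts treated with siRNA against FOXF1/2 and in none of the other 8 paired-end libraries. They are called siFOXF1/2-only regions. Peaks on chromosomes 1 to 22 of the 10 paired-end lists were merged where they shared at least 1 bp, which gave 149504 regions, and 7198 of them met the rule (4.81%). They held 7212 peaks of siFOXF1/2 replicate 1 and 7215 of replicate 2, so nearly every region was a single peak in each list. The regions were chosen by the presence and absence of peaks in the paired-end lists, so values from these 10 libraries describe them and test nothing. Without siFOXF1/2 replicate 2 the same rule gave 15405 regions.

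ATAC-seq marks open chromatin, since a transposase inserts sequencing adapters where DNA is not covered by nucleosomes or other proteins. Many open sites far from gene starts are enhancers, whose use differs between cell types and cell states. FOXF1 and FOXF2 are forkhead transcription factors of mesenchymal cells, among them lung fibroblasts. Factors of the forkhead family can bind nucleosomal DNA, and some are known as pioneer factors that open chromatin, while others repress genes.

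All libraries came from IMR-90 ER:Ras cells, a derivative of the established human lung fibroblast line IMR-90 with an oncogenic Ras joined to the hormone-binding part of the oestrogen receptor. Adding 4-hydroxytamoxifen switches the fusion protein on and drives the cells into oncogene-induced senescence, a lasting growth arrest with an inflammatory secretion programme. The paired-end groups were siFOXF1/2 (2 libraries, siRNA against FOXF1/2 and 100 nM 4-OHT for 6 days), JUN-family knockdown (2 libraries, siRNA against the AP-1 subunits cJUN, JUNB and JUND per the treatment label, although the title names cJUN/JUND, with the same 4-OHT), Pro (2 libraries, control siRNA and no 4-OHT, with senescent fibroblast as cell type label although the title says Pro) and Sen (4 libraries, control siRNA with the same 4-OHT). The 6 single-end libraries, which the rule did not use, were sip300/CBP (2 libraries), sip65 (2 libraries) and Sen (2 libraries with control siRNA), all with the same 4-OHT. The acetyltransferases p300 and CBP are enhancer coactivators, and p65 is the RELA subunit of NF-kB, a driver of the inflammatory programme of senescent cells. Every group is thus 1 engineered line, the extent of each knockdown cannot be read from peak lists, and no label says that replicates were separate cultures, so p-values measure only the spread between these libraries.

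The siFOXF1/2 lists were among the longest of the paired-end lists. They held 108323 and 102453 peaks, against 98740 to 102990 in the 4 Sen lists and 60199 to 66350 in the JUN-family knockdown and Pro lists. The genome-wide background coverage, a stand-in for depth recovered from the lists, was 2.61 and 1.93 in siFOXF1/2, inside the range of the others, 1.74 to 3.08. A peak had to reach 4.97 and 5.71 times the background to be listed in siFOXF1/2, against 4.58 to 6.31 times in the others. The single-end libraries were far shallower, with a background of 0.195 to 0.475 and 14.7 to 25.7 times the background needed, so in them only strong peaks could be seen.

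The siFOXF1/2-only regions were narrow and of modest height. Their median width was 389 bp (5th to 95th percentile 225 to 727 bp, range 186 to 1740 bp), against 663 bp for the 81719 regions that both siFOXF1/2 lists shared with at least 1 other list. A merged width can only grow with the number of lists, but single peaks were shorter too, with median lengths of 347 and 302.5 bp in siFOXF1/2 replicates 1 and 2, against 542 and 503 bp in the shared regions. Summit pileup, the number of fragments stacked over the summit, stood at a median of 16.1 times the background in replicate 1 (interquartile range 11.9 to 22.6) and 15.1 times in replicate 2 (11.4 to 20.8). The shared regions had medians of 32.1 and 33.2 times the background. The fold enrichment over local background that the authors' peak caller gave was closer, at medians of 8.86 and 7.89 against 11.1 and 10.7.

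The summits of the 2 lists lay a median of 21 bp apart, and 75.3% lay within 50 bp of each other, much as in the shared regions (median 14 bp, 75.9%). The rule favours close summits, since the peaks of both lists had to fall in 1 merged region. Peaks were also shorter than in the shared regions (medians 347 and 302.5 bp against 542 and 503 bp), so the 2 sets are not matched. The ranking of the regions by height was looser between the 2 libraries: across siFOXF1/2-only regions the log2 pileups of the replicates had a Pearson correlation of 0.807, and the −log10 q-values a Spearman correlation of 0.735, against 0.939 and 0.922 across the shared regions. These are correlations across regions of the same 2 libraries, which are not independent replicates, and the siFOXF1/2-only regions span a narrower range of heights.

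Many of the regions held by both siFOXF1/2 lists were in few other lists. Of the 88917 regions held by both siFOXF1/2 lists, 7198 were in none of the other 8 lists (8.10%), 3834 were in exactly 1, 4353 in 2 and 4550 in 3, while 37197 were in all 8. The median pileup over background in siFOXF1/2 replicate 1 was 16.1 for none, 16.8 for 1 list, 17.2 for 2, 22.2 for 4 and 51.7 for all 8. The siFOXF1/2-only regions were thus nearly as strong in siFOXF1/2 as the regions that 1 or 2 other libraries also held. Among the 3834 regions found in exactly 1 other list, the other list was Sen replicate 1, 2, 3 or 4 for 968, 1520, 303 and 482 regions, Pro for 151 and 196 and JUN-family knockdown for 145 and 69. Most of these regions just outside the rule were in Sen replicates 1 or 2, the Sen lists with the same style of peak name as siFOXF1/2 and Pro. No label says what the name styles stand for. Among the 6 lists of that style alone, 9138 regions met the rule.

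**Figure D1:**
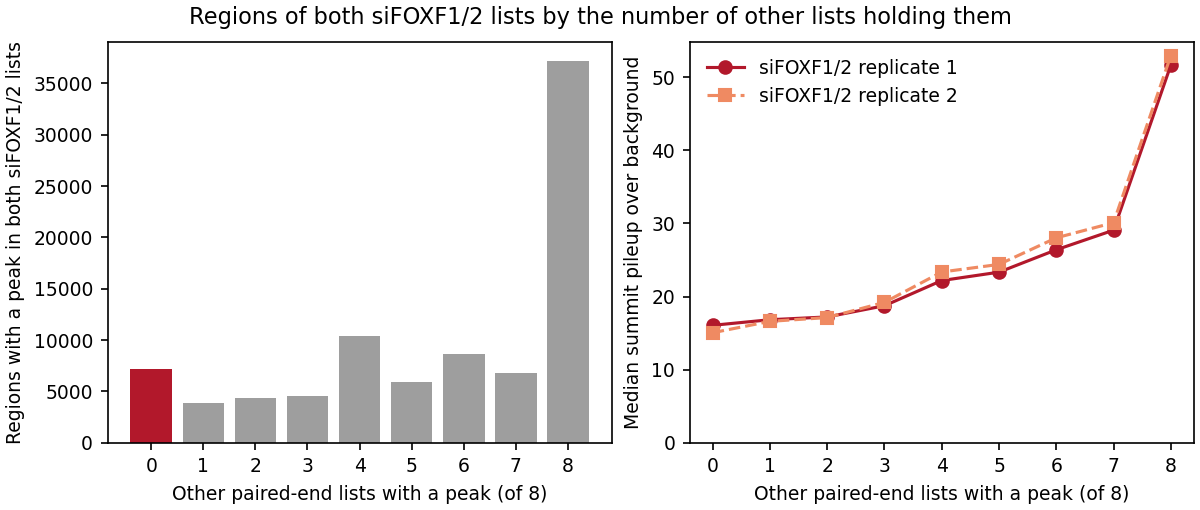
Regions with a peak in both siFOXF1/2 lists, by how many of the other 8 paired-end lists held a peak (x axis). Left, the number of regions, with the 7198 siFOXF1/2-only regions in red at 0 and 3834 at 1; right, the median summit pileup over genome-wide background in each siFOXF1/2 library, which stays between 15 and 20 for 0 to 3 other lists and reaches 51.7 and 52.95 at 8.

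A region in a single list only is common, and the 2 siFOXF1/2 libraries differed here. Regions private to 1 library numbered 8120 in siFOXF1/2 replicate 1 and 2685 in siFOXF1/2 replicate 2, against 1844 and 594 in JUN-family knockdown, 591 and 870 in Pro and 1296 to 4568 in the 4 Sen libraries. The number of regions both libraries of a group held and no other list did was 7198 for siFOXF1/2, against 1626 for JUN-family knockdown and 777 for Pro, groups of the same size with shorter lists. With the strongest peaks of each paired-end list, as many as the shortest holds, 3031 regions were siFOXF1/2-only. The other groups were not counted at that length, so whether siFOXF1/2 exceeds them there was not tested. In the opposite direction, 6048 regions were held by all 4 Sen lists and by neither siFOXF1/2 list, and are called closed by siFOXF1/2. That definition ignores the Pro and JUN-family knockdown lists. With those lists ignored, both siFOXF1/2 lists and no Sen list held 8624 regions. The rule fixed these counts and no test was made of them.

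Presence and absence do not give a size of change, so a lower bound was put on each region: its lower pileup over background in siFOXF1/2, divided by the highest level at which it could have stayed unlisted in the other libraries. Against the 4 Sen libraries the median bound was 2.13-fold, and it reached at least 2-fold for 4072 regions (56.6%) and at least 4-fold for 249. Against all 8 libraries the median was 1.81-fold, with 2642 regions at 2-fold or more (36.7%) and 58 at 4-fold or more. Scaling libraries on the regions of all 10 lists instead of on background lowered the bounds to a median of 1.74-fold against Sen, with 2551 regions at 2-fold or more (35.4%), and to 0.967-fold against all 8, with 116 regions. The last value was set by JUN-family knockdown, whose shared peaks were lower relative to background. A bound below 1 says that the region could have been as open in an unlisted library.

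Ranked by the lower −log10 q of the 2 siFOXF1/2 peaks, the first region was chr10:106006474-106007234 (hg19). Its summit stood at 73.1 times the background in siFOXF1/2 replicate 1 and 62.3 times in replicate 2 (mean 67.7 ± 7.62, SD, n = 2), at least 5.92-fold above what any Sen library could have left unlisted. The nearest region of all 10 lists lay 7.88 kb away, and no single-end list held a peak there.

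The second, chr6:75858832-75859651, reached 59.3 and 57.1 times the background in siFOXF1/2 replicates 1 and 2, with a bound of 5.23-fold against Sen. It also had a peak in both sip300/CBP lists, with fold enrichments of 10.0 and 8.13, and in neither single-end Sen list nor either sip65 list. The third, chr9:3578890-3579121, reached 38.3 and 41.5 times the background, with a bound of 6.38-fold against Sen. Here both sip300/CBP lists held a peak, with fold enrichments of 8.70 and 8.50, but so did both single-end Sen lists, with 9.75 and 8.81.

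Next came chr2:219610530-219610928 (54.7 and 52.4 times the background), chr10:102051883-102052519 (49.4 and 48.8), chr16:54270691-54271276 (57.8 and 52.95) and chr15:95991915-95992504 (57.8 and 47.2), none of which had a peak in any single-end list. The region chr14:52858468-52859006 (46.3 and 39.97) was likewise absent from all 6 single-end lists. The replicates of these 5 regions lay close together, and every value was at least 4 times the highest level that could stay unlisted in Sen.

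Of the 10 strongest, chr5:59492300-59492599 differed most between the siFOXF1/2 libraries, at 31.0 and 44.6 times the background. It lay 99.1 kb from any other paired-end region and had a peak in both sip300/CBP lists and in single-end Sen replicate 1. The last, chr1:569805-570077, at 42.9 and 36.9 times the background, had a peak in all 6 single-end lists, with fold enrichments of 10.3 and 9.28 in sip300/CBP, 10.7 and 17.4 in sip65 and 11.4 and 12.2 in Sen. This stretch of chromosome 1 is known to hold a copy of mitochondrial DNA, and its absence from the 8 other paired-end lists goes against its presence in single-end Sen.

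**Figure D2:**
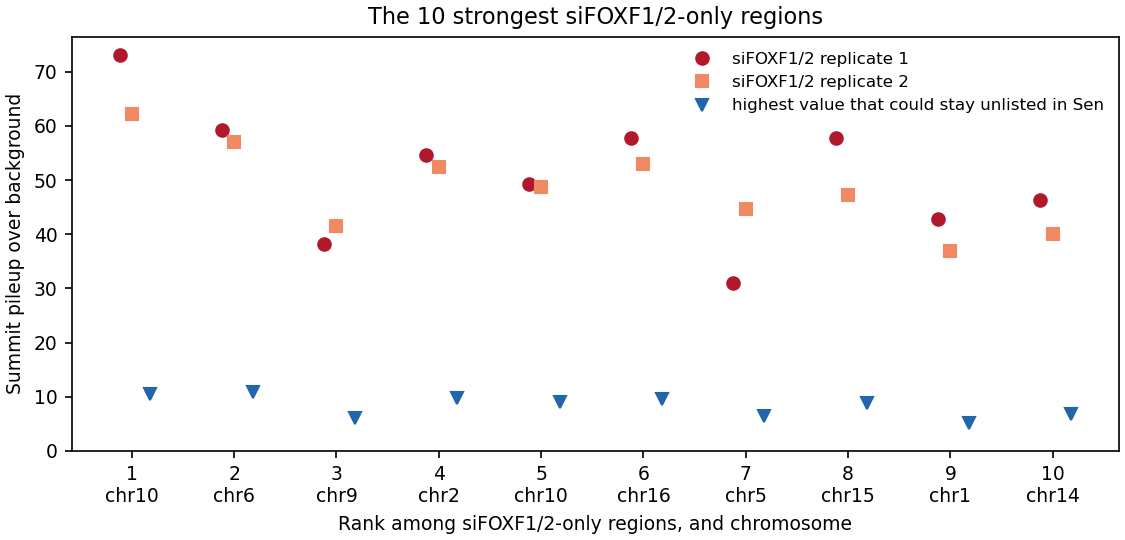
Summit pileup over genome-wide background (y axis, linear) of the 10 strongest siFOXF1/2-only regions, ordered by their lower −log10 q over the 2 libraries (x axis, rank and chromosome). Circles and squares are siFOXF1/2 replicates 1 and 2, and triangles the highest level that could have gone unlisted in any of the 4 Sen libraries. Both siFOXF1/2 values lie above the triangle at each region, with bounds of 4.84 to 7.09-fold.

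Over these 10 regions the mean pileup in siFOXF1/2 ran from 37.8 to 67.7 times the background. The bound against all 8 libraries ran from 4.15 to 5.84-fold, or from 2.27 to 3.13-fold when scaled on the regions of all 10 lists. Both sip300/CBP lists held 4 of them, both single-end Sen lists 2 and any sip65 list 1. Over all siFOXF1/2-only regions these shares were 7.40%, 3.82% and 1.19%, and over all paired-end regions 24.3%, 28.2% and 27.5%. The 10 were picked by their strength in siFOXF1/2, so their counts show no pattern of their own.

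The rule did not sort regions by height in siFOXF1/2, as its weakest members and strongest non-members showed. Among the weakest members, chr6:13917051-13917629 stood at 11.1 and 5.71 times the background in siFOXF1/2 replicates 1 and 2 and chr16:65604009-65604525 at 12.2 and 6.75 times, with bounds against Sen of 0.977 and 1.02-fold. Just outside lay strong regions kept out by 1 peak in 1 Sen library. The region chr1:86952625-86953616 reached 73.1 and 63.9 times the background in siFOXF1/2, with a mean of 68.5 that exceeded those of the 10 strongest members, against 7.01 times in Sen replicate 4. At chr9:110263149-110263420 the values were 80.4 and 68.0 times in siFOXF1/2, against 24.4 times in Sen replicate 2, and at chr9:12915827-12916420 they were 59.7 and 52.4 times, against 13.2 times in Sen replicate 2.

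Whether the regions were absent from senescent cells in general could be checked in the single-end libraries. At least 1 single-end Sen list held a peak at 842 of the 7198 regions (11.7%), against 42.5% of all paired-end regions. Both single-end Sen lists held 275 of them (3.82%, against 28.2%). Since these lists show strong peaks only, the 842 regions go against calling the full set newly opened, and a further set may lie under their detection floor. No single-end list of any group held a peak at 5503 of the regions (76.5%), against 47.5% of all paired-end regions.

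The regions were held more often after p300/CBP knockdown than in the matching Sen libraries, and hardly at all after p65 knockdown. Peaks were present at 16.8% and 9.63% of the regions in sip300/CBP replicates 1 and 2 (1206 and 693 regions) and at 7.72% and 7.79% in the single-end Sen libraries (556 and 561). In sip65 replicates 1 and 2 they were present at 1.14% and 0.153% (82 and 11 regions). Both sip300/CBP libraries thus lay above both Sen libraries, and both sip65 libraries lay below them, although sip300/CBP replicate 2 was near Sen. The regions were chosen for absence from every paired-end Sen list, which favours a low share in single-end Sen too. The excess in sip300/CBP over Sen therefore cannot be told apart from the choice of regions. Across all paired-end regions the means went the other way, 31.6% in sip300/CBP against 35.3% in Sen.

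The mean share was 13.2% ± 5.04 in sip300/CBP, against 7.76% ± 0.0491 in Sen (SD, n = 2 each), a difference of 5.43 percentage points (two-sided exact permutation p = 0.3333). It was 0.646% ± 0.697 in sip65, against the same Sen value, a difference of −7.11 points (two-sided exact permutation p = 0.3333). With 2 libraries a group 0.3333 is the smallest p the exact test can give, so neither difference could pass a threshold of 0.05, both comparisons share the Sen libraries, and adjusting over the 2 tests leaves them at 0.3333. The 95% Wilson intervals were 15.9 to 17.6% and 8.97 to 10.3% for sip300/CBP, 0.919 to 1.41% and 0.0854 to 0.273% for sip65, and 7.13 to 8.36% and 7.20 to 8.44% for Sen, and they cover counting error across regions alone. Without sip300/CBP replicate 1 or 2 the first difference was 1.87 or 9.00 points. At the 3031 regions that met the rule with paired-end lists of equal length, the sip300/CBP minus Sen difference was 1.63 points (exact permutation p = 1) and the sip65 minus Sen difference −23.9 points, so the groups of the first comparison overlapped there.

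List length differed between these libraries. It ran in the order of the shares of siFOXF1/2-only regions except at sip300/CBP replicate 2, which was shorter than both Sen lists. The sip300/CBP lists held 71181 and 46580 peaks and the sip65 lists 44037 and 17899, against 54612 and 67661 for Sen. Across all paired-end regions the shares were 36.6% and 26.5% in sip300/CBP and 26.7% and 11.5% in sip65, against 32.1% and 38.6% in Sen. Relative to this share in the same library, the siFOXF1/2-only regions were held 0.457 and 0.363 times as often in sip300/CBP, 0.0427 and 0.0133 times in sip65, and 0.241 and 0.202 times in Sen. The order of the groups was the same when each list was cut to its strongest 17707 peaks: 2.71% and 2.57% in sip300/CBP, 0.0834% and 0.153% in sip65, and 1.18% and 0.403% in Sen. At this length, which left 6 to 195 of the 7198 regions with a peak per library, the differences were 1.85 and −0.674 points, against 5.43 and −7.11 points with the full lists. With sip65 replicate 2 left out, the other 5 lists were also cut to 43377 peaks. The shares were then 8.70% and 8.86% in sip300/CBP, 1.14% in sip65 replicate 1, and 5.52% and 3.11% in Sen.

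The regions closed by siFOXF1/2 showed the reverse order for p300/CBP. Their shares were 8.47% and 5.18% in sip300/CBP and 21.3% and 6.08% in sip65, against 16.9% and 29.5% in Sen. The siFOXF1/2-only regions were therefore held 1.98 and 1.86 times as often as the closed ones in sip300/CBP, 0.0534 and 0.0251 times in sip65, and 0.458 and 0.264 times in Sen. These ratios are taken within a library, where list length is shared. The 3 groups of ratios did not overlap, and the exact permutation p against Sen was 0.3333 for both knockdowns, again the smallest possible. However, closed regions were chosen for a peak in every paired-end Sen list, and siFOXF1/2-only regions for absence from all of them. That choice favours a high Sen share at closed regions and a low ratio in Sen. The reverse order and the higher ratios in sip300/CBP than in Sen therefore cannot be told apart from the choice of regions. Regions held only by JUN-family knockdown also had more peaks in sip300/CBP, at 11.7% and 4.80%, against 2.28% and 3.20% in Sen, so the excess in sip300/CBP was not shown to be particular to siFOXF1/2-only regions. In sip65 their shares were 2.83% and 0.431%, which overlapped those of Sen (exact permutation p = 0.667).

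**Figure D3:**
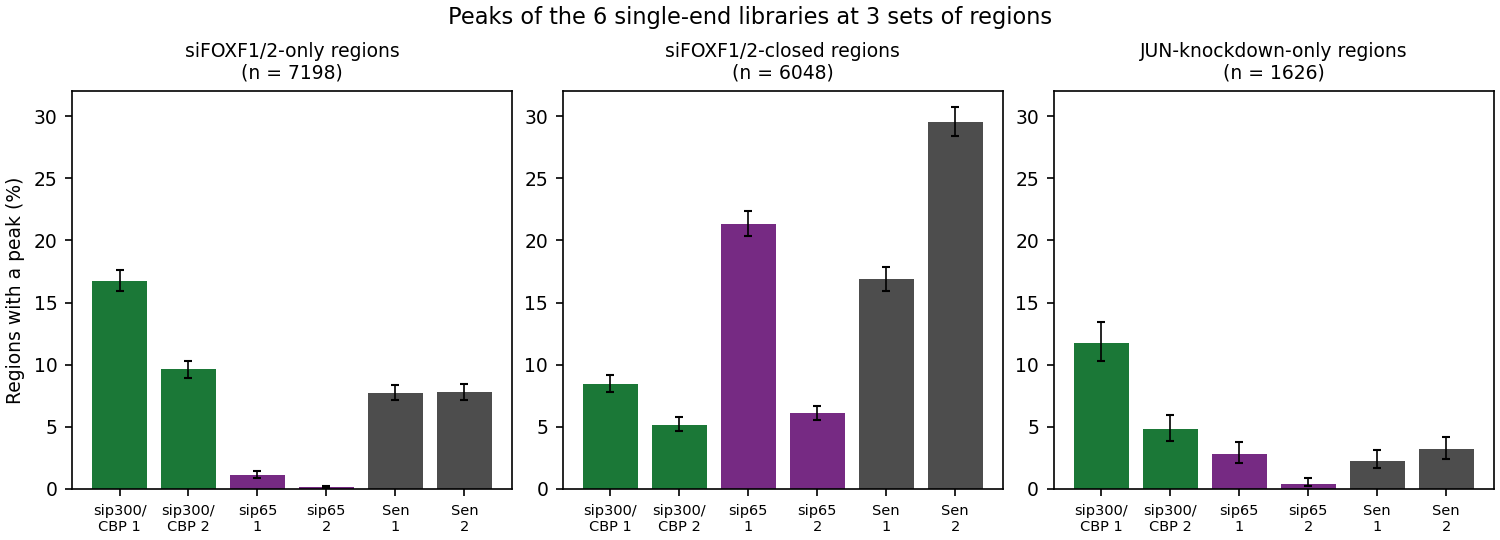
Share of regions with a peak in each single-end library (y axis, percent; bars from 0, whiskers 95% Wilson intervals over regions), for siFOXF1/2-only regions (left), regions closed by siFOXF1/2 (middle) and regions held only by JUN-family knockdown (right). At siFOXF1/2-only regions sip300/CBP is highest (16.8% and 9.63%) and sip65 lowest (1.14% and 0.153%), with Sen between; at closed regions sip300/CBP lies below Sen.

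Single regions showed both patterns. Both sip300/CBP lists and no single-end Sen list held a peak at 232 siFOXF1/2-only regions (3.22%, against 2.08% of all paired-end regions), and both single-end Sen lists but no sip300/CBP list at 56 (0.778%, against 4.49%). These shares rest on unlike bases, since at least 1 single-end Sen list held 11.7% of siFOXF1/2-only regions, against 42.5% of all. They therefore show no gain or loss in sip300/CBP. Among regions that both single-end Sen lists held, neither sip300/CBP list held 20.4% of the siFOXF1/2-only ones, against 15.9% of all. The strongest of the 232 after the chromosome 6 region above were chr1:45346955-45347346, chr17:5112582-5113125, chr19:46627972-46628279 and chr1:108543172-108543887. The first of these stood at 43.6 and 36.9 times the background in siFOXF1/2 and had fold enrichments of 5.54 and 9.10 in sip300/CBP. The region on chromosome 17 stood at 49.0 and 32.2 times the background, with fold enrichments of 7.12 and 7.73 in sip300/CBP.

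For p65, both Sen lists but no sip65 list held 239 regions (3.32%, against 7.57% of all), and both sip65 lists but no single-end Sen list held 0 (against 0.152%). The 239 make up most of the 275 regions that had a peak in both single-end Sen lists. Among the 275 regions that both single-end Sen lists held, sip65 replicates 1 and 2 held 35 (12.7%) and 7 (2.55%), while sip300/CBP replicates 1 and 2 held 200 (72.7%) and 167 (60.7%). Of all 42164 paired-end regions that both single-end Sen lists held, sip65 held 71.6% and 36.8% and sip300/CBP 81.1% and 70.1%. Neither sip65 list held 86.9% of the 275 regions, against 26.8% of the 42164 and 49.3% of the 807 closed regions among them.

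This low share in sip65 was not limited to weak Sen peaks. When regions of both single-end Sen lists were split into 5 bins by the lower of their −log10 q values, sip65 replicate 1 held 5.56 to 25.5% of the siFOXF1/2-only regions in a bin, against 33.8 to 65.4% of the closed regions and 45.6 to 86.8% of all paired-end regions in the same bins. The bins hold only 54 to 56 siFOXF1/2-only regions each. In the strongest bin sip65 replicate 1 held 25.5% and replicate 2 7.27%, against 86.8% and 56.5% of all regions there.

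The strongest siFOXF1/2-only regions that both single-end Sen lists held, after those on chromosomes 9 and 1 above, were chr12:124030741-124031275, chr1:179093999-179094662 and chr2:122325581-122326140. The second of these stood at 65.8 and 51.4 times the background in siFOXF1/2, with fold enrichments of 10.7 and 11.4 in sip300/CBP and 8.31 and 7.55 in single-end Sen, and no peak in sip65. The third stood at 54.7 and 45.2 times the background, with fold enrichments of 12.4 and 7.38 in sip300/CBP and 6.86 and 8.46 in single-end Sen, and again no peak in sip65. The region on chromosome 12 kept a peak in sip65 replicate 1, with a fold enrichment of 8.95.

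Detection in the single-end lists grew with the strength of the region in siFOXF1/2. From the weakest to the strongest of 5 bins by −log10 q, the share ran from 7.99% to 27.5% in sip300/CBP replicate 1 and from 4.25% to 18.5% in replicate 2. In Sen it ran from 2.46% to 16.3% in replicate 1 and from 2.69% to 15.9% in replicate 2, and in sip65 replicate 1 from 0.299% to 2.64%. Both sip300/CBP libraries lay above both Sen libraries in each of the 5 bins. The bins divide the same regions and reuse the same libraries, so they are not repeated tests. The choice of regions absent from paired-end Sen favours a low Sen share in every bin. Regions shared by both siFOXF1/2 lists with at least 1 other list, in the same bins, had 8.06 to 48.2% in sip65 replicate 1 and 8.96 to 58.8% in Sen replicate 1, above the siFOXF1/2-only regions. The shared regions were also wider, with median widths of 523 to 682 bp over the bins, against 365 to 440 bp. Overlap was scored at 1 bp, so the 2 sets are not matched in size.

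**Figure D4:**
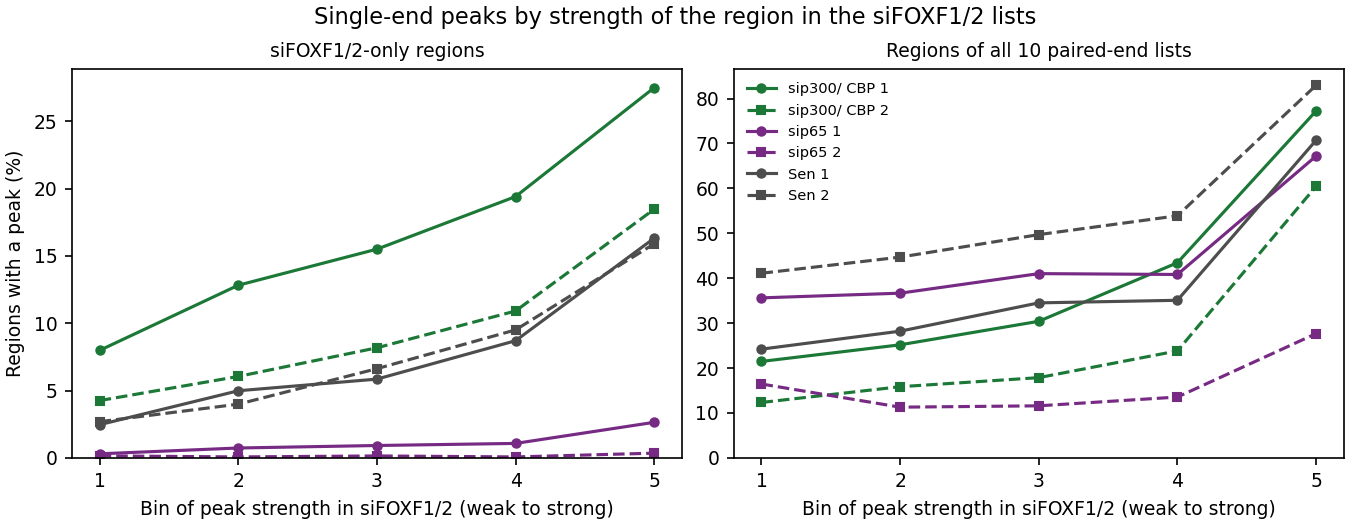
Share of regions with a peak in each single-end library (y axis, percent, scales differ between panels) by bin of strength in siFOXF1/2, the lower −log10 q of its 2 lists (x axis, same limits in both panels). In siFOXF1/2-only regions (left) the sip300/CBP lines lie above Sen and sip65 stays under 3%; in regions of all 10 lists (right) the groups interleave.

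Along the genome the regions, as processed here, lay somewhat farther from constitutively open sites than the other sets did. Their median distance moved under every alternative run, and the distances of the other sets were not measured there. The median distance to the nearest region of all 10 lists was 21.2 kb, against 18.1 kb for regions held only by JUN-family knockdown, 16.9 kb for those held only by Pro and 15.4 kb for those closed by siFOXF1/2. Within 10 kb of such a site lay 27.3% of them, against 33.3%, 34.1% and 37.3% of the other sets. A further 10.7% lay over 100 kb away. Within 10 kb of a closed region lay 433 of them (6.02%), against 6.33% of regions held only by JUN-family knockdown and 8.37% of those held only by Pro. The median distance to a closed region was 122 kb, against 110 kb and 103 kb.

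Regions of all 10 lists next to the openings did not differ much from those elsewhere. Their log2 pileup over background in siFOXF1/2 minus Sen had a median of 0.29 within 10 kb of a siFOXF1/2-only region alone (2101 regions). It was 0.23 within 10 kb of a closed region alone (2542), 0.26 near both (180) and 0.26 near neither (32374). Each of these medians lay above 0.

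The regions were spread over all autosomes. They made up 5.71% of the paired-end regions of chromosome 4 (461 of 8077), the highest share, and 2.72% on chromosome 19 (105 of 3858), the lowest, while chromosome 1 held the most, 714. Chromosome 19 also had the lowest share of closed regions, and it is known as the most gene-dense human chromosome. Regions of all 10 lists, part of the same total, had their highest share on chromosome 19 (38.9%) and their lowest on chromosome 4 (21.6%).

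**Figure D5:**
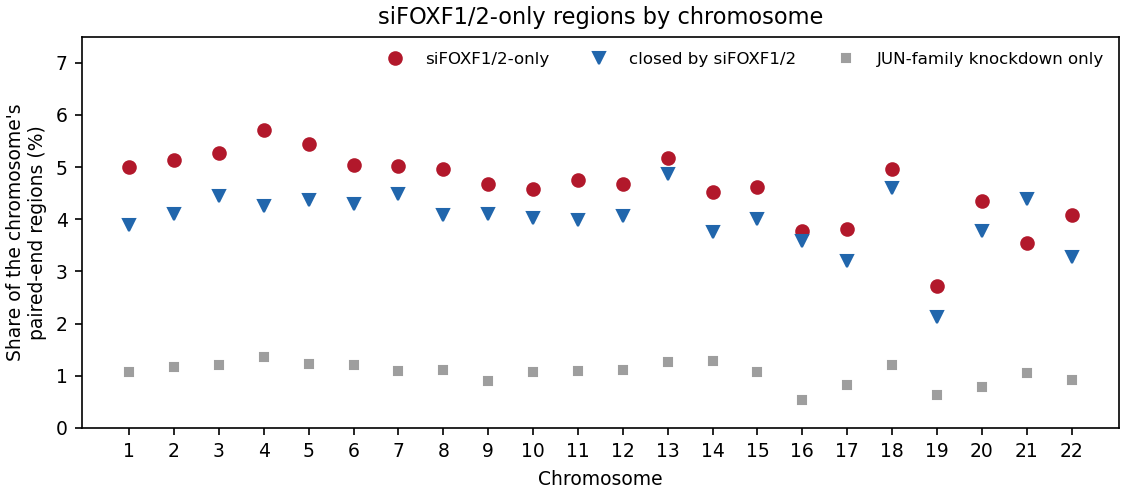
Share of each chromosome's paired-end regions (y axis, percent, from 0) that were siFOXF1/2-only (circles), closed by siFOXF1/2 (triangles) or held only by JUN-family knockdown (squares), for chromosomes 1 to 22 (x axis). The siFOXF1/2-only share is highest on chromosome 4 (5.71%) and lowest on chromosome 19 (2.72%).

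Most siFOXF1/2-only regions stood alone, with a median of 84.3 kb to the next one, and 645 (8.96%) had another within 10 kb. A few stretches held many. In windows of 500 kb, chr5:157500001-158000000 held the most, 14 of its 34 paired-end regions, with 0 closed regions and 6 regions of all 10 lists. The 14 ranged from 8.42 to 36.0 times the background in siFOXF1/2 replicate 1 and from 8.31 to 31.7 in replicate 2. No single-end Sen list held any of them, and a sip300/CBP list held 2. Over all siFOXF1/2-only regions at least 1 single-end Sen list held 11.7%, and sip300/CBP replicates 1 and 2 held 16.8% and 9.63%. Over all paired-end regions these shares were 42.5%, 36.6% and 26.5%. Windows chr3:31000001-31500000 and chr7:43000001-43500000 held 10 each, of 35 and 43 regions, and a window on chromosome 8 also held 10. At least 5 regions were found in 231 windows, which together held 1308 of the regions.

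A few regions stood far from any other open site. The most isolated, chr3:84157613-84158230, lay 850 kb from the nearest paired-end region and stood at 13.4 and 15.1 times the background in siFOXF1/2. It was followed by chr3:181429567-181429879, 722 kb away (9.57 and 15.1 times), and chr5:100760553-100760997, 627 kb away (6.50 and 11.9 times). All 3 were absent from all 6 single-end lists, as were 76.5% of siFOXF1/2-only regions and 47.5% of all paired-end regions.

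The widest region was an exception to the agreement between replicates. At chr6:119558558-119560297, 1740 bp wide, siFOXF1/2 replicate 1 stood at 105 times the background and replicate 2 at 10.4 times. All 6 single-end lists held a peak there, with fold enrichments of 43.1 and 38.4 in sip300/CBP, 37.8 and 34.0 in sip65 and 39.1 and 38.5 in Sen. Its bound against Sen was 1.11-fold, so it counted as siFOXF1/2-only on the strength of 1 library and a weak peak in the other. All 6 single-end lists held a peak at 4 siFOXF1/2-only regions (0.0556%), against 8.30% of all paired-end regions. Besides this region and the one on chromosome 1 described above, chr4:106912144-106912468 and chr10:49462049-49462332 were the other two.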

How the data were processed

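Peak lists of 16 ATAC-seq libraries were used, 1 list per library, sequenced as single reads or read pairs per the labels' protocols. The submitters' processing notes name Bowtie2 2.3.4.1, SAMtools 1.9, deepTools 3.1.1, MACS2 2.1.1 and the genome build hg19, with no role or order. How reads were shifted and which caller settings were used is not given in the sources used here; single-end peak names carry an rmdup tag, paired-end ones none. Each deposited list gives per peak a score, a fold enrichment ratio at the summit, the −log10 p-value and −log10 q-value, and the summit position. No peak had a −log10 q under 4. These values are the authors' own and were used only within their own list, to rank or describe peaks. The deposited score was not used.

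Peaks on chromosomes 1 to 22 were merged with Python 3.11.15 (numpy 2.4.6, pandas 2.3.3, scipy 1.17.1), at 1 bp of overlap. Whole summit pileups and local backgrounds were recovered by taking fold as (pileup + 1) / (background + 1) and p as a Poisson tail (tolerance 0.002 in −log10 p), and genome-wide background was taken as the 1st percentile of a list's local backgrounds. A bound on fold is the lower siFOXF1/2 pileup over background divided by the highest level that would stay unlisted in the other lists at the higher local background of the 2 siFOXF1/2 peaks. It leaves out the caller's minimum peak length. No count test was run. Shares of regions in single-end libraries were tested over libraries with exact permutation, two-sided, with 95% Wilson intervals. The scripts were tested on simulated peaks.

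The members and lists were chosen with earlier results of these data known. Named regions are the 10 with the highest lower −log10 q, the weakest members and strongest non-members with 1 other list, the 5 strongest with each single-end pattern, and the widest and farthest. Of these, the text leaves out values of some. The regions held by all 6 single-end lists and the densest windows were singled out after their values were seen. Alternatives were stricter q-values, equal list lengths, 50% cover, 500 bp windows on summits, leaving out each library, absence from Sen only, bounds, and single-end summits inside a region. Added after seeing the data were strongly bounded members only, removal of regions held by all 6 single-end lists, lists of 1 name style, absence from single-end Sen, and 5 single-end lists of equal length. Gene annotation and sequence of hg19 were not used here, so regions carry coordinates only, and the planned motif and gene comparisons were not run.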

Additional observations from a re-analysis of the deposited data

Results flagged for a closer look

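The shares of siFOXF1/2-only regions with a single-end peak moved in opposite directions in the 2 knockdowns. The difference from single-end Sen was 5.43 percentage points for sip300/CBP and −7.11 points for sip65, with both libraries of each knockdown on 1 side of both Sen libraries. The rule itself asked for absence from paired-end Sen, which favours a low Sen share. The direct difference, sip300/CBP minus sip65, was 12.5 points (13.2% ± 5.04 against 0.646% ± 0.697, SD, n = 2 each; exact permutation p = 0.3333, two-sided, with no smaller value possible). Across all paired-end regions the means of sip300/CBP and sip65 were 31.6% and 19.1%, so list length moves with this difference. After each single-end list was cut to 17707 peaks, both sip300/CBP libraries (2.71% and 2.57%) stayed above both sip65 libraries (0.0834% and 0.153%).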

How the results depend on the processing

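The count of 7198 siFOXF1/2-only regions was within 1.5 times of itself under 16 of 20 alternatives and moved under 4. Paired-end lists of equal length gave 3031, a bound of at least 2-fold left 2642 scaled by background and 116 scaled on the regions of all 10 lists, and leaving out single libraries gave 7269 to 15405, the highest without siFOXF1/2 replicate 2. Absence also from both single-end Sen lists left 6356. The sip300/CBP minus Sen difference of 5.43 points stayed positive under every alternative run (1.63 to 9.00 points). It was 1.63 with paired-end lists of equal length (exact permutation p = 1), and 1.87 without sip300/CBP replicate 1 against 9.00 without replicate 2, which were the extremes when single libraries were left out. The sip65 minus Sen difference of −7.11 points stayed negative (−23.9 to −0.674), at −23.9 with paired-end and −0.674 with single-end lists of equal length, and −7.91 to −5.71 when single libraries were left out. Cutting the other single-end lists to the length of sip65 replicate 1 and leaving out sip65 replicate 2 gave −3.17 points (exact permutation p = 0.667). With libraries of the same number taken as a replicate block, the differences were 5.43 and −7.11 by construction (exact p = 0.5 for both, the smallest possible). These libraries share only a number. Depth limits the single-end lists to peaks at 14.7 times the background or more.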
